A study of Mus musculus with 6 samples.

Results

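Excitation-contraction coupling genes encode the proteins that turn an electrical signal at the muscle surface into calcium release inside the fibre. The 10 genes described here are Cacna1s, Cacnb1, Cacng1, Stac3, Ryr1, Jph2, Tmem38a, Casq1, Casq2 and Atp2a1. They were chosen by name, with earlier results of these data known, and each had 1 row among the 32973 genes of the deposited table. All were measured in primary mouse muscle stem cells from skeletal muscle, sorted by flow cytometry and kept in culture for 3 days. The dishes were coated with collagen, the medium held serum and basic fibroblast growth factor (bFGF), and the labels list no treatment. Med23KO cells (genotype Med23flox/flox::Pax7CreERT2, 3 libraries) carried loxP-flanked Med23 alleles and a Cre recombinase that tamoxifen activates, driven by Pax7. Ctrl cells (genotype Med23flox/flox, 3 libraries) carried the same loxP-flanked alleles and no Cre. No group had Cre without the loxP-flanked alleles, so an effect of Cre cannot be told apart from one of Med23 loss. The labels give no age or sex of the animals and do not say whether libraries came from separate animals or cultures. The p-values therefore speak of the spread among libraries, and that spread may be technical.

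In skeletal muscle the voltage sensor is an L-type calcium channel of the surface membrane and its inward folds, the transverse tubules. It sits opposite the calcium release channel of the sarcoplasmic reticulum, the internal calcium store, at a junction called the triad. Depolarisation moves the sensor, the release channel opens, calcium reaches the contractile filaments, and a pump then returns it to the store. Proliferating muscle stem cells do not contract, and these genes are known to be switched on as myoblasts leave the cell cycle and form fibres.

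Levels are FPKM (fragments counted per length of transcript and per depth of library), and how many reads lie behind them is unknown. Each library had 12017 to 12465 genes above 1 FPKM. The targeted gene Med23, a subunit of the Mediator complex, had 5.10, 5.86 and 4.23 FPKM in Med23KO replicates 1, 2 and 3, against 10.4, 11.7 and 10.2 FPKM in Ctrl replicates 1, 2 and 3. All 3 Med23KO libraries were below all 3 Ctrl libraries for the targeted gene (log2 fold change -0.96, limma adjusted p = 0.0197). With any 1 library left out the adjusted p was between 0.00862 and 0.108 and passed the threshold only without Med23KO replicate 3. The cells carried the markers of their label, with Pax7 at 32.4 to 60.3 FPKM in Med23KO and 34.5 to 57.7 FPKM in Ctrl libraries, and Myod1 at 551 to 964 FPKM in Med23KO and 702 to 1170 FPKM in Ctrl libraries. In both groups replicate 3 was mostly the lowest library for the genes described here: it was lowest for 7 of the 10 in Med23KO and for 8 of the 10 in Ctrl.

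The tests compared log2(FPKM + 1) values between the groups with limma, over the 12336 genes whose mean reached 1 FPKM, and p-values were adjusted over all of these by the Benjamini-Hochberg method. Fold changes are Med23KO minus Ctrl on this scale, which understates changes of low genes. Of the 10 genes, 8 were tested, and Cacna1s and Casq1 fell below the filter. Casq2 passed it only through its Med23KO libraries, so it entered the test because it was higher there. Stac3 and Tmem38a rose in Med23KO cells, and 0 of the 8 fell, where 1.49% of all genes tested rose. At an unadjusted p under 0.05, 5 of the 8, Casq2 among them, were higher and 0 lower, where 8.84% of all genes tested were higher at that threshold. The authors' deposited table, made with Cuffdiff, called 6 of the 10 higher (Cacna1s, Cacnb1, Casq2, Ryr1, Stac3 and Tmem38a) and 0 lower, where it called 8.61% of the genes it tested higher. Casq1, among the 10, was not tested there. The median log2 fold change was 0.73 over the 8 tested genes and 0.60 over all 10 without the filter, beside -0.03 over all genes tested. Since the genes were chosen with earlier results known, these counts and medians describe the group and do not test it.

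**Figure D1:**
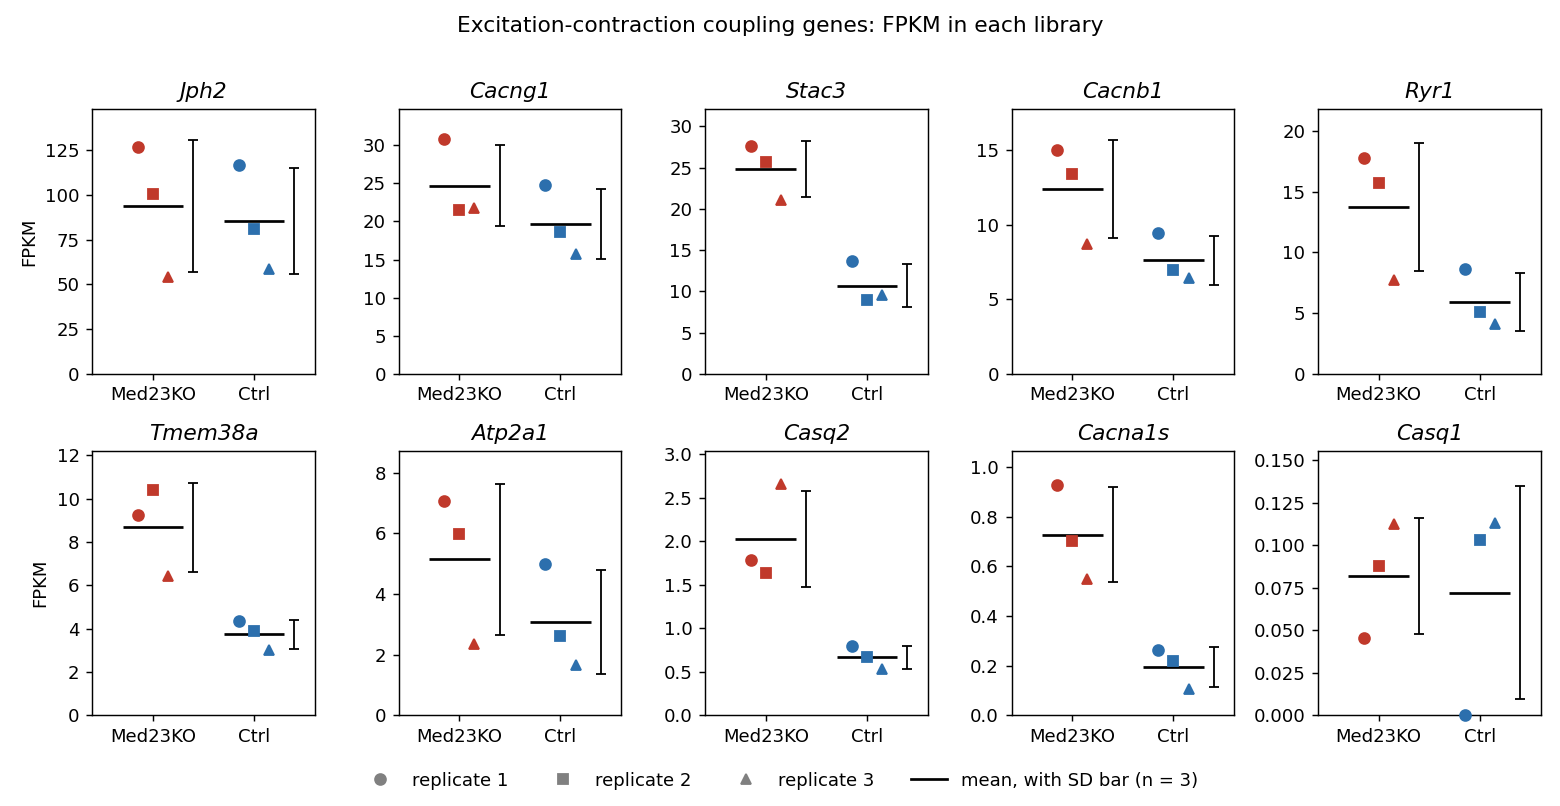
FPKM of the 10 genes in each library (y axis, linear, a scale of its own for each gene) in Med23KO and Ctrl cells; marker shapes give the replicate number, lines the means and bars the SD (n = 3). The groups do not overlap for Stac3, Tmem38a, Casq2 and Cacna1s, and Med23KO replicate 3 lies within or below the Ctrl range for Jph2, Cacng1, Cacnb1, Ryr1, Atp2a1 and Casq1.

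The levels spanned a wide range, and their order was similar in both groups. In Med23KO cells the order of mean FPKM was Jph2 (93.7), Stac3 (24.8), Cacng1 (24.7), Ryr1 (13.7), Cacnb1 (12.4), Tmem38a (8.68), Atp2a1 (5.14), Casq2 (2.03), Cacna1s (0.726) and Casq1 (0.0819). In Ctrl cells it was Jph2 (85.4), Cacng1 (19.7), Stac3 (10.7), Cacnb1 (7.60), Ryr1 (5.94), Tmem38a (3.75), Atp2a1 (3.09), Casq2 (0.667), Cacna1s (0.194) and Casq1 (0.0721). Neighbours in the Med23KO order had overlapping ranges from Stac3 to Cacng1 and for each step from Ryr1 down to Casq2. In Ctrl cells ranges overlapped for each step from Stac3 down to Atp2a1, and for Cacna1s with Casq1. The voltage-sensing pore subunit was thus among the least abundant messages, while the membrane-junction protein Jph2 was above every other gene of the group in every library.

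The promoters of 8 of the 10 genes were found in the RefSeq table of the GRCm38.p6 build, while Stac3 and Cacng1 had no entry. The stretches shown are the 250 bases before the annotated start of the voltage sensor gene Cacna1s and the calsequestrin gene Casq2, whose groups did not overlap, of the called gene Tmem38a, of the release channel gene Ryr1, and of the most abundant gene, Jph2. They are shown 5′ to 3′ on the strand of the gene, with each E-box of the form CANNTG, the sequence that MyoD-family factors bind, in capitals.
Cacna1s (chr1:136052561-136052810, plus strand): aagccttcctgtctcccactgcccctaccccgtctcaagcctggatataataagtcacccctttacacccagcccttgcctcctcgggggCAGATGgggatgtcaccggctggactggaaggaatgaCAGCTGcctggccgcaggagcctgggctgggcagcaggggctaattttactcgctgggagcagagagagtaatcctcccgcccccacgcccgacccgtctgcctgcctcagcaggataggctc
Casq2 (chr3:102086165-102086414, plus strand): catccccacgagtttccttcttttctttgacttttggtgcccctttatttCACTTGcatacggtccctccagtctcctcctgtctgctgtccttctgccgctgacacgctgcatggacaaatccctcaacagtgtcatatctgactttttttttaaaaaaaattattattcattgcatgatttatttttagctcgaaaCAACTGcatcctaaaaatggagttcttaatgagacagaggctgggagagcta
Tmem38a (chr8:72571573-72571822, plus strand): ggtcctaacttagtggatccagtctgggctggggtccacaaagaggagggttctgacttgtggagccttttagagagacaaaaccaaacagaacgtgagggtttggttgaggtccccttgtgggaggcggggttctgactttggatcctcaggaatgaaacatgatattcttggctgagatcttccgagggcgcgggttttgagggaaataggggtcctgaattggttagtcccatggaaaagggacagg
Ryr1 (chr7:29125152-29125401, minus strand): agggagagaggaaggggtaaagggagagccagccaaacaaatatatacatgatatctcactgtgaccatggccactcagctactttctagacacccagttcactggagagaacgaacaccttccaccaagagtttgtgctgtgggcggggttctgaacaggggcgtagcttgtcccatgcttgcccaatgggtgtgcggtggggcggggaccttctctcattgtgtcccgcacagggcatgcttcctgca
Jph2 (chr2:163397994-163398243, minus strand): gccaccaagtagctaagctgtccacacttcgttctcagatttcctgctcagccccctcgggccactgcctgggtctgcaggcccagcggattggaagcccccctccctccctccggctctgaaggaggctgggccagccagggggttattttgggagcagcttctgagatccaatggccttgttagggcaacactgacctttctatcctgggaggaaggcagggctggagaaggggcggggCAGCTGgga
The form CANNTG, which reads the same on both strands and includes the CAGCTG and CACCTG forms, was in 7 of the 10 promoters of these 8 genes, as it was in 66.2% of the 32851 promoters of the table. Jph2 and Cacnb1 each had 2 of the 10. The narrower form CAGCTG was in 5 of the 10, those of Cacna1s, Casq1, Atp2a1 and both of Jph2, beside 13.0% of all promoters. The 2 Jph2 windows overlap and hold the same CAGCTG, so this is 1 genomic site counted in both. The form CACCTG, searched on both strands, was in 1, that of Casq1, beside 17.2%. For MEF2 factors only 1 string was searched, CTA and TAG with 4 bases of any kind between them. It was in 0 of the 10, beside 3.20% of all. Other forms that MEF2 factors bind were not searched, so this count does not show that their sites are absent. The called gene Tmem38a and the release channel gene Ryr1 held no CANNTG in this window, and Jph2, whose levels overlapped between the groups, held a CAGCTG 9 bases before its start. A match describes letters in this window and not a bound site. The windows follow RefSeq starts, which can differ from the GENCODE gene positions given below. Those of Cacna1s and Ryr1 reach into the GENCODE genes, which start at 136052750 and 29125179. That of Tmem38a ends at 72571822, before the GENCODE start at 72572055.

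Among the parts of the voltage sensor, the pore subunit gene Cacna1s was low in all libraries and higher in the Med23KO ones. Cacna1s (mm10 chromosome 1, positions 136052750 to 136119822, plus strand) encodes the subunit that senses voltage. Its level was 0.928, 0.703 and 0.547 FPKM in Med23KO replicates 1, 2 and 3, against 0.262, 0.217 and 0.105 FPKM in Ctrl replicates 1, 2 and 3. The groups did not overlap, and the ratio of means was 3.73. Without the filter on low values its log2 fold change was 0.53 (95% interval 0.29 to 0.77), which missed the threshold (limma adjusted p = 0.0799), while the authors' deposited table called it (q = 0.000695). The annotation places an antisense gene and an uncharacterised gene model over it, and the sources used here do not say whether counting used strand.

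The accessory subunits Cacnb1 and Cacng1 had overlapping groups. Cacnb1 encodes the beta subunit that brings the pore subunit to the membrane, and had 15.0, 13.4 and 8.69 FPKM in Med23KO replicates 1, 2 and 3, against 9.45, 6.96 and 6.40 FPKM in Ctrl replicates 1, 2 and 3. Med23KO replicates 1 and 2 were above every Ctrl library, and replicate 3 was within the Ctrl range. The log2 fold change of Cacnb1 was 0.62 (95% interval 0.11 to 1.13, limma adjusted p = 0.172). Cacng1 encodes the gamma subunit, which lowers the calcium current of the channel. It had 30.8, 21.5 and 21.8 FPKM in the Med23KO libraries, against 24.7, 18.6 and 15.7 FPKM in the Ctrl libraries. The Cacng1 ranges overlapped, and its log2 fold change was 0.32 (95% interval -0.14 to 0.78, limma adjusted p = 0.439).

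Stac3 rose in Med23KO cells and had the smallest adjusted p of the 8 tested genes. It encodes an adaptor protein that binds the voltage sensor and is needed for its coupling to the release channel. Stac3 (mm10 chromosome 10, positions 127501686 to 127508823, plus strand, 12 exons) had 27.6, 25.7 and 21.0 FPKM in Med23KO replicates 1, 2 and 3, against 13.7, 8.90 and 9.51 FPKM in Ctrl replicates 1, 2 and 3. The lowest Med23KO library was above the highest Ctrl library. The mean was 24.8 ± 3.37 FPKM in Med23KO cells and 10.7 ± 2.59 FPKM in Ctrl cells (SD, n = 3 each), and limma gave a log2 fold change of 1.15 with an SE of 0.176 (adjusted p = 0.0233). In bulk RNA, a change in the share of cells that express a gene and a change in RNA per cell cannot be told apart. In an exact permutation test, two-sided, p was 0.1, and 3 libraries against 3 cannot give less. The call was lost without Ctrl replicate 2 (adjusted p = 0.122) or 3 (0.0745) and without Med23KO replicate 1 (0.0829) or 2 (0.137), and the log2 fold change stayed between 1.05 and 1.33 with any library left out. It was also lost without the filter on low values, which raised the number of genes tested to 20466 (adjusted p = 0.0555), and over all settings tried the adjusted p lay between 0.00173 and 0.137.

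The release channel gene Ryr1 differed by as much as Stac3 on average, but its libraries were spread more widely. Ryr1 (mm10 chromosome 7, positions 29003344 to 29125179, minus strand, 106 exons) had 17.8, 15.7 and 7.74 FPKM in Med23KO replicates 1, 2 and 3, against 8.62, 5.05 and 4.13 FPKM in Ctrl replicates 1, 2 and 3. Med23KO replicate 3 was below Ctrl replicate 1, so the groups overlapped. The ratio of means was 2.31, beside 2.32 for Stac3 and 2.31 for Tmem38a. For Ryr1 limma gave a log2 fold change of 1.06 with a 95% interval from 0.29 to 1.84 (adjusted p = 0.137). Without Med23KO replicate 3 it was 1.40 and passed the threshold (limma adjusted p = 0.0150, within a range of 0.00496 to 0.405 over all settings tried). In that fit 5 of the 8 tested genes passed (Cacnb1, Casq2, Ryr1, Stac3 and Tmem38a), where 6.11% of all genes tested rose. Of these, Casq2 passed the filter on low values only through its Med23KO libraries. The annotation holds 2 antisense genes within Ryr1, whose reads could not be told apart from those of Ryr1 if counting did not use strand.

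Tmem38a rose in Med23KO cells. It encodes a cation channel of the sarcoplasmic reticulum that carries potassium to balance charge as calcium leaves the store. Tmem38a (mm10 chromosome 8, positions 72572055 to 72587282, plus strand, 6 exons) had 9.22, 10.4 and 6.42 FPKM in Med23KO replicates 1, 2 and 3, against 4.33, 3.90 and 3.01 FPKM in Ctrl replicates 1, 2 and 3. The groups did not overlap. The mean was 8.68 ± 2.04 FPKM in Med23KO cells and 3.75 ± 0.674 FPKM in Ctrl cells (SD, n = 3 each), and limma gave a log2 fold change of 1.01 with an SE of 0.191 (adjusted p = 0.0385). This call held only without Med23KO replicate 3 (adjusted p = 0.00658) among the fits that left out 1 library. It was lost without Ctrl replicate 1, 2 or 3 and without Med23KO replicate 1 or 2, with adjusted p-values of 0.0765, 0.162, 0.110, 0.128 and 0.185 in that order. It was also lost without the filter on low values (adjusted p = 0.0890), and over all settings tried the adjusted p lay between 0.00260 and 0.185.

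Jph2 was the most abundant gene of the group and its ranges overlapped almost entirely. It encodes a junctophilin, which tethers the store to the surface membrane. Jph2 had 127, 100.4 and 53.9 FPKM in Med23KO replicates 1, 2 and 3, against 117, 81.1 and 58.4 FPKM in Ctrl replicates 1, 2 and 3. Within each group the libraries differed more than the group means did, with replicate 1 highest and replicate 3 lowest in both. The log2 fold change of Jph2 was 0.10 (limma adjusted p = 0.913), and its 95% interval, -0.70 to 0.91, includes a change as large as that seen for Cacnb1.

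**Figure D2:**
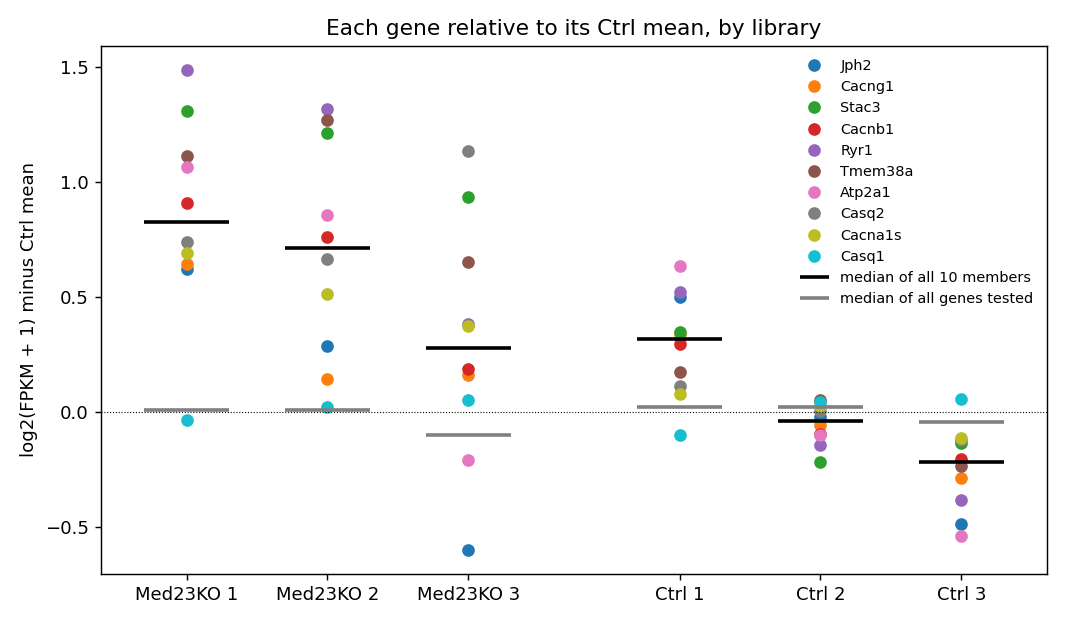
Each gene's log2(FPKM + 1) minus its Ctrl mean (y axis) in the 3 Med23KO and 3 Ctrl libraries (x axis); points are genes, black lines the median of the 10 genes and grey lines the median of all genes tested. The black lines stand at 0.83, 0.71 and 0.28 in Med23KO replicates 1, 2 and 3 and at 0.32, -0.04 and -0.22 in Ctrl replicates 1, 2 and 3, so that Med23KO replicate 3 and Ctrl replicate 1 overlap.

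The calsequestrins, which bind calcium inside the store, were both low. Casq2, the form known from heart and slow fibres, had 1.78, 1.64 and 2.66 FPKM in Med23KO replicates 1, 2 and 3, against 0.803, 0.668 and 0.531 FPKM in Ctrl replicates 1, 2 and 3. The groups did not overlap, with a ratio of means of 3.04. Its log2 fold change was 0.85 with an SE of 0.176 and missed the threshold (limma adjusted p = 0.0515). It passed without a variance trend (adjusted p = 0.0388), with a robust trend (adjusted p = 0.0495), with library weights (adjusted p = 0.0132), with the replicate number as a block (adjusted p = 0.0227) and without Med23KO replicate 3 (adjusted p = 0.0463), and with other libraries left out the adjusted p reached 0.192. Casq2 also missed it with quantile normalization (limma adjusted p = 0.0903), without the filter on low values (0.0786), with equal medians (0.0516) and with a pseudocount of 0.1 (0.0516) or 0.5 (0.0501). Casq1, the form of fast fibres, had 0.0454, 0.0876 and 0.113 FPKM in the Med23KO libraries. In the Ctrl libraries it was listed at 0, 0.103 and 0.113 FPKM, so it was near the bottom of the scale in both groups. Casq2 was the one gene of the 10 whose highest library was Med23KO replicate 3 and whose lowest was Ctrl replicate 3.

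Because Casq2 and Jph2 are also heart genes, the markers of heart muscle were read beside them. Of 10 such markers, Myl7, Nppa and Tbx5 were listed at 0 in every library, and Myh6 reached 0.0196 FPKM in Med23KO replicate 2 alone. The part of heart-like expression in the differences was not tested.

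Atp2a1, which encodes the calcium pump of fast fibres, had 7.08, 5.99 and 2.34 FPKM in Med23KO replicates 1, 2 and 3, against 4.99, 2.61 and 1.66 FPKM in Ctrl replicates 1, 2 and 3. Its ranges overlapped, and limma gave a log2 fold change of 0.57 with an SE of 0.396 (adjusted p = 0.493). Like Cacnb1, Ryr1, Jph2 and Cacna1s, it was highest in replicate 1 and lowest in replicate 3 of both groups. The annotation has the gene Rabep2 overlapping Atp2a1 on the other strand.

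**Figure D3:**
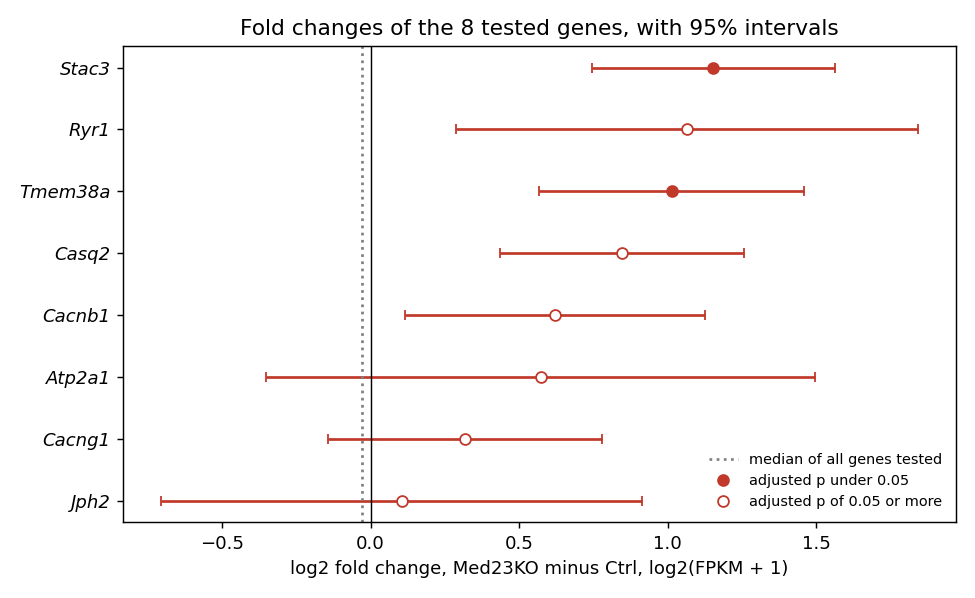
Log2 fold change (x axis, Med23KO minus Ctrl on the log2(FPKM + 1) scale) of the 8 tested genes with limma's 95% intervals; filled points have an adjusted p under 0.05 and the dotted line is the median of all genes tested, -0.03. Stac3, at 1.15, and Tmem38a, at 1.01, are filled, while Ryr1, at 1.06, has a wider interval and is open.

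Since Jph2 varied more within the groups than between them, the other genes were also set against it within each library, a ratio that a scaling factor for the library cannot change. This ratio was chosen after the values were seen and is given as a description. Ryr1 had 14.0, 15.6 and 14.3 FPKM per 100 FPKM of Jph2 in Med23KO replicates 1, 2 and 3, while the Ctrl replicates had 7.38, 6.23 and 7.08. On this scale the overlap seen for Ryr1 was absent, and the spread within a group was small beside the gap between them. Cacnb1 had 11.8, 13.4 and 16.1 per 100 FPKM of Jph2 in Med23KO libraries, against 8.09, 8.59 and 11.0 in Ctrl libraries. Atp2a1 had 5.58, 5.97 and 4.35 in Med23KO libraries, against 4.27, 3.21 and 2.85 in Ctrl libraries. The groups did not overlap for 7 of the 9 genes (all but Cacng1 and Casq1). Of all genes tested, 4.91% did not overlap and were higher in Med23KO when set against Jph2. Of the 7, Cacna1s fell below the filter and is outside that set, and Casq2 passed the filter only through its Med23KO libraries. In FPKM alone 4 of the 10 did not overlap, beside 9.17% of the genes above 0 in any library. That is a wider set of genes, so these shares cannot be compared with each other. For Ryr1, Tmem38a, Stac3, Casq2 and Cacna1s the mean ratio to Jph2 in Med23KO cells was 2.12 to 3.64 times that in Ctrl cells.

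**Figure D4:**
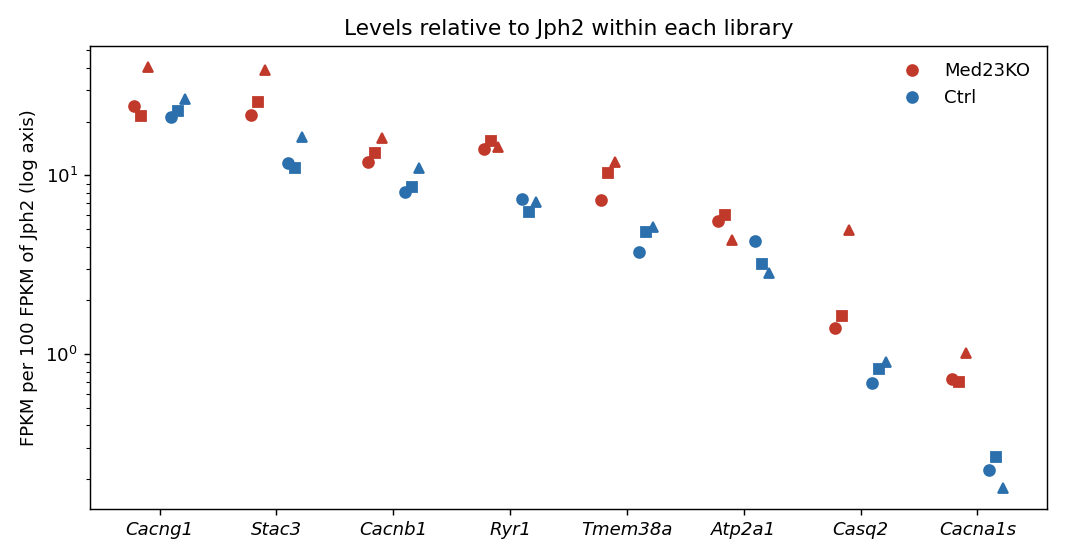
FPKM per 100 FPKM of Jph2 within each library (y axis, log scale) for 8 genes (x axis); red points are Med23KO and blue points Ctrl libraries, and marker shapes give replicates 1 (circle), 2 (square) and 3 (triangle). Only Cacng1 has overlapping groups among those drawn, and Ryr1 has 14.0 to 15.6 in Med23KO against 6.23 to 7.38 in Ctrl libraries.

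Most of these genes have relatives used in other tissues, and their levels show which form the cells mainly expressed. Of the summed FPKM of the 3 ryanodine receptor genes, Ryr1 made up 99.2%, 98.6% and 99.1% in Med23KO replicates 1, 2 and 3, while it made up 99.7%, 99.5% and 98.5% in the Ctrl replicates. Jph2 made up 92.8% to 96.8% of the 4 junctophilin genes in Med23KO libraries and 94.2% to 96.4% in Ctrl libraries. By contrast Atp2a1 was the minor form of its pump family and made up 1.34% to 3.57% of it in Med23KO libraries and 0.996% to 2.84% in Ctrl libraries. Most of the rest was Atp2a2, the pump gene of heart, slow fibres and most other cells, at 165 ± 6.67 FPKM in Med23KO cells and 156 ± 1.93 FPKM in Ctrl cells (SD, n = 3 each; log2 fold change 0.08, limma adjusted p = 0.653).

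The share of the muscle form did not overlap between the groups for 2 of the 8 families, those of Stac3 and Cacna1s. How often such shares do not overlap in other gene families was not computed, and both genes also did not overlap in FPKM. Stac3 made up 82.4%, 88.4% and 91.2% of the Stac genes in Med23KO replicates 1, 2 and 3, while it made up 70.3%, 70.3% and 79.5% in the Ctrl replicates. Its relative Stac2 had 3.74 ± 1.97 FPKM in Med23KO cells and 3.97 ± 1.66 FPKM in Ctrl cells (SD, n = 3 each). Cacna1s made up 38.9% ± 2.71 of its family with Cacna1c and Cacna1d in Med23KO cells and 18.0% ± 4.90 in Ctrl cells (SD, n = 3 each), though all 3 genes were below 1 FPKM. For both shares the exact permutation test, two-sided, gave its minimum, p = 0.1. The share of Tmem38a against Tmem38b was 35.7% to 49.4% in Med23KO libraries and 30.5% to 39.7% in Ctrl libraries, and these overlapped. Tmem38b, which is found in many tissues, had 10.9 ± 0.518 FPKM in Med23KO cells and 6.96 ± 1.09 FPKM in Ctrl cells (SD, n = 3 each; limma adjusted p = 0.0581). Stac2 and Tmem38b were named after their values were seen.

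**Figure D5:**
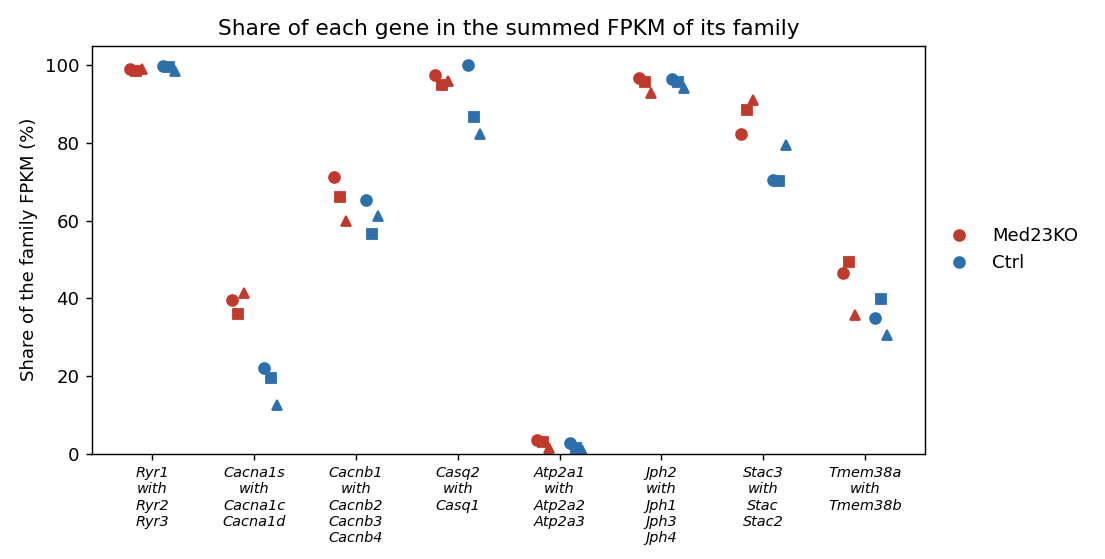
Share of each gene in the summed FPKM of its family (y axis, percent; the other family members are under each name), in Med23KO (red) and Ctrl (blue) libraries, with marker shapes for replicates 1 (circle), 2 (square) and 3 (triangle). The groups are apart for Cacna1s and Stac3, Ryr1 and Jph2 make up at least 92.8% in every library, and Atp2a1 at most 3.57%.

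Of 30 further genes of the triad, the tubules and calcium handling, 21 were tested, with a median log2 fold change of 0.12. Of the 21, 2 rose and 0 fell, beside 1.49% of all genes tested that rose. At an unadjusted p under 0.05, 4 of the 21 were higher and 0 lower, beside the 8.84% of all genes tested. The authors' deposited table, which did not test all 30, called 8 higher and 0 lower, beside 8.61% of the genes it tested. Cacna2d1, the remaining subunit of the voltage sensor, had 21.8, 24.2 and 22.1 FPKM in Med23KO replicates 1, 2 and 3, against 14.7, 14.3 and 15.4 FPKM in Ctrl replicates 1, 2 and 3 (log2 fold change 0.59, limma adjusted p = 0.0271 and up to 0.156 with 1 library left out). Cav3, the caveolin of muscle membranes, had 8.31 ± 0.196 FPKM in Med23KO cells and 4.61 ± 0.410 FPKM in Ctrl cells (SD, n = 3 each; log2 fold change 0.73, limma adjusted p = 0.0220 and up to 0.136 with 1 library left out). For both of these genes, and for Cacng4 and Slc8a1, only the fit without Med23KO replicate 3 kept the call among those that left out 1 library. The most abundant of the others did not pass. The calmodulin gene Calm2 had 198 ± 37.8 and 197 ± 26.9 FPKM in Med23KO and Ctrl cells, Fkbp1a, whose product binds the release channel, 185 ± 15.2 and 184 ± 8.89 FPKM, and the tubule-forming gene Bin1 113 ± 35.1 and 77.6 ± 20.5 FPKM (SD, n = 3 each). Some genes of this list were near 0: Trdn, the triadin gene, did not exceed 0.321 FPKM in Med23KO or 0.0241 FPKM in Ctrl libraries, and neither Pvalb nor Pln exceeded 0.134 FPKM. These 3 were named after their values were seen.

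Among 19 paralogs, 7 were tested, 1 rose and 0 fell, beside 1.49% of all genes tested that rose. At an unadjusted p under 0.05, 4 of the 7 were higher and 0 lower, beside 8.84% of all genes tested. The authors' deposited table, which did not test all 19, called 4 higher and 0 lower, beside 8.61% of the genes it tested. The one that rose was Cacng4, a relative of Cacng1, with 6.04 ± 0.647 FPKM in Med23KO cells and 3.39 ± 0.329 FPKM in Ctrl cells (SD, n = 3 each; log2 fold change 0.68, limma adjusted p = 0.0378 and up to 0.177 with 1 library left out). Cacng7 had 18.6 ± 5.16 and 14.2 ± 6.05 FPKM in Med23KO and Ctrl cells, and the pump gene Atp2a3 20.6 ± 4.74 and 12.02 ± 1.78 FPKM (SD, n = 3 each; limma adjusted p = 0.533 and 0.0898). Of 12 genes of store-operated entry and inositol trisphosphate receptors, 10 were tested and 0 passed in limma, with a median of -0.01, 1 higher and 1 lower at an unadjusted p under 0.05, and 0 higher and 1 lower in the authors' deposited table. Of 16 genes of calcium export and mitochondrial uptake, 12 were tested, and the exchanger gene Slc8a1 alone rose, with 3.53 ± 0.186 FPKM in Med23KO cells and 2.01 ± 0.0543 FPKM in Ctrl cells (SD, n = 3 each; limma adjusted p = 0.0459 and up to 0.211 with 1 library left out). At an unadjusted p under 0.05, 3 of the 12 were higher and 2 lower, beside 8.84% of all genes tested that were higher. The median log2 fold change of the 12 was 0.09.

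Genes of muscle differentiation were mostly higher as well. Of 25 listed, 21 were tested, 8 rose and 0 fell, beside 1.49% of all genes tested that rose. The authors' deposited table, which did not test all 25, called 18 higher and 2 lower, where it called 8.61% of the genes it tested higher. At an unadjusted p under 0.05, 17 of the 21 were higher and 0 lower, beside 8.84% of all genes tested. A positive log2 fold change was seen for 19 of the 21, and their median was 1.06, beside 0.73 for the tested coupling genes. Of the 21, Actn2, Tnnc2 and the Mymx row passed the filter on low values only through their Med23KO libraries, and Actn2 and Mymx are among the 8 that rose, as is Cav3 of the triad list. Myog, the myogenin gene, had 84.5, 89.4 and 76.0 FPKM in Med23KO replicates 1, 2 and 3, against 43.8, 32.2 and 14.6 FPKM in Ctrl replicates 1, 2 and 3 (log2 fold change 1.56, limma adjusted p = 0.0609). Of 14 markers of fibroblasts and fibro-adipogenic progenitors, 12 were tested and all 12 had a positive log2 fold change. Of these 0 passed in limma in either direction. At an unadjusted p under 0.05, 5 of the 12 were higher and 0 lower, beside 8.84% of all genes tested. The authors' deposited table, which did not test all 14, called 6 higher and 0 lower, beside 8.61% of the genes it tested. The summed level of the 14 markers was 354 to 505 FPKM in Med23KO libraries and 273 to 331 FPKM in Ctrl libraries, most of it from Col3a1. The defining marker Pdgfra had 3.78, 2.41 and 2.66 FPKM in Med23KO replicates 1, 2 and 3, against 2.65, 1.28 and 1.70 FPKM in Ctrl replicates 1, 2 and 3. Its ranges overlapped (log2 fold change 0.47, limma adjusted p = 0.288), while the authors' deposited table called it higher (q = 0.00189). Pi16, which marks a subset of these cells, was listed at 0 in every Med23KO library and in Ctrl replicate 3.

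Of 10 markers of smooth muscle and mural cells, 5 were tested, 1 rose and 0 fell in limma. Only 1 of the 5 had a positive log2 fold change, and their median was -0.04. At an unadjusted p under 0.05, 1 was higher and 1 lower, and the authors' deposited table called 1 higher and 2 lower. The summed level of the 10 markers was 273 to 323 FPKM in Med23KO libraries and 163 to 205 FPKM in Ctrl libraries, without overlap. Most of it came from Acta2, the smooth muscle actin gene, with 267 ± 21.5 FPKM in Med23KO cells and 145 ± 13.4 FPKM in Ctrl cells (SD, n = 3 each; log2 fold change 0.88, limma adjusted p = 0.0137). The Acta2 call was lost without Med23KO replicate 1 or 2 or Ctrl replicate 2, with a limma adjusted p of up to 0.0997. The defining marker Myh11 did not exceed 0.266 FPKM in Med23KO or 0.370 FPKM in Ctrl libraries. Of 10 Schwann cell markers, 3 were tested, 1 rose and 0 fell in limma, and their summed level was 52.9 to 174 FPKM in Med23KO libraries and 28.6 to 65.4 FPKM in Ctrl libraries. Most of it came from the receptor gene Ngfr, with 92.2 ± 59.6 FPKM in Med23KO cells and 32.8 ± 17.5 FPKM in Ctrl cells (SD, n = 3 each; limma adjusted p = 0.314). The gene that rose was Pmp22, a myelin protein gene, with 28.2 ± 4.70 FPKM in Med23KO cells and 10.2 ± 1.38 FPKM in Ctrl cells (SD, n = 3 each; log2 fold change 1.38, limma adjusted p = 0.0113). The Pmp22 call was lost without Med23KO replicate 2 or Ctrl replicate 2, with a limma adjusted p of up to 0.0806. The defining marker Sox10 did not exceed 0.361 FPKM in Med23KO or 0.366 FPKM in Ctrl libraries. The part of these cell types in the differences of the coupling genes was not tested.

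The median profile of the 8 tested genes over the 6 libraries was compared with 8801 other genes whose mean reached 5 FPKM. The nearest, by the root mean square difference in log2(FPKM + 1) relative to the Ctrl mean, were Lama2 (0.0527), Scrn1 (0.0593), Gsn (0.0690), Bcar3 (0.0736) and Vgll3 (0.0737). In the same measure the coupling genes themselves ran from 0.0636 for Cacnb1 to 0.460 for Jph2 among those tested. Of the 8801 genes, 299 were within 0.25.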

How the data were processed

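RNA of 3 Med23KO and 3 Ctrl libraries was analysed from 1 deposited table. Per the labels' protocols, poly(A) RNA was made into strand-specific libraries, and per the submitters' processing notes FastQC, cutadapt, STAR and Cuffdiff were used with mm10. The sources used here give no versions, annotation or strand setting. The authors deposited FPKM per library, as Cuffdiff scales them, so no count model was used and no reads per library are known. Steps of 1 fragment did not give the depth, since at most 16.0% of low genes shared 1 ratio between 2 libraries (tolerance 0.03, log2). This highest share was between Med23KO and Ctrl replicate 1. The share was 11.5% between the libraries numbered 2 and 6.72% between those numbered 3, beside 2.73% to 5.30% for all other pairs. The cause was not tested. The deposited p-values and q-values come from the authors' Cuffdiff test and are quoted as such; the deposited test statistic, a score, was not used. The authors' group values equal the means of the library columns within 0.1%.

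Tests used limma 3.58.1 in R 4.3.3 on log2(FPKM + 1) with genotype as the factor and a trend of variance on mean, two-sided. Only the main limma fit was tested on simulated data, in which noise was drawn independently for each library. The other fits and the descriptive steps were not tested in this way. Genes outside the 10 were named by rule: those passing in the triad and paralog lists, up to 3 more of each by mean level, the 5 nearest in profile, and Med23, Myog, Myod1 and Pax7. Slc8a1, Mef2c and single cell type markers were named after their values were seen. The 10 genes and all lists were chosen with earlier results of these data known. Promoters came from RefSeq (GRCm38.p6) and coordinates from GENCODE vM21. Alternatives covered pseudocount, filter, scaling, variance model, library weights, a replicate block and each library left out. Dates had replaced 27 gene names, which stay unnamed. The summed level of 1 marker list is not reported here.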

Additional observations from a re-analysis of the deposited data

How the results depend on the processing

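Over all genes 184 were higher and 175 lower. The counts were 73 and 84 without a filter on low values, 850 and 850 with library weights, and 298 higher under quantile normalization. With equal medians 363 were higher and 205 lower, so that 63.9% of calls were rises, beside 51.3% as reported. With 1 library left out they ran from 3 to 754 higher and from 10 to 400 lower. Of the coupling genes 2 passed, with 0 passing without a filter, 5 with library weights, whose estimation stopped before it converged (where 6.89% of all genes rose) and 0 to 5 with 1 library left out, namely 5 if Med23KO replicate 3 was left out, 1 if Ctrl replicate 1 was, and 0 for each of the others. Both sets of 5 include Casq2, which passed the filter only through its Med23KO libraries. No coupling gene passed as lower under any setting, and the median log2 fold change of those tested stayed between 0.60 and 0.94. With 1 library left out, the sign turned for Jph2 (from -0.16 to 0.45, negative without Med23KO replicate 1 or Ctrl replicate 3), Pax7 (-0.14 to 0.31), Fkbp1a (-0.039 to 0.076) and Calm2 (-0.15 to 0.10, and -0.057 with library weights); the cause was not tested.

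With the replicate number as a block, 1180 genes (9.57%) were higher and 1577 lower, and 7 coupling genes passed, all tested ones but Jph2. Deviations from the group means correlated at 0.44, -0.016 and 0.56 for replicates 1, 2 and 3, and not every library correlated best with its own number. Ctrl replicate 2 correlated at -0.035, -0.016 and 0.040 with Med23KO replicates 1, 2 and 3. With values this near 0 for each, the correlation cannot decide on a pairing for replicate 2. The share of low genes at 1 ratio was highest for the same-numbered pairs, replicate 2 included. Whether same-numbered libraries belong together is not established, and the main test did not use the replicate number. The labels tie the numbers to no animal or batch. Precision rests on 3 libraries a group, and levels below 1 FPKM are the least certain.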

Other observations

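Calcium genes outside the triad and the factors that control muscle genes were read from the same libraries. Of 13 genes that decode calcium signals, 11 were tested and 0 passed in limma, with 2 higher and 1 lower at an unadjusted p under 0.05 and 3 higher and 1 lower in the authors' deposited table. Of 10 calcium-binding chaperones and related genes of the endoplasmic reticulum, 10 were tested and 0 passed in limma, with a median log2 fold change of 0.14, 1 higher and 0 lower at an unadjusted p under 0.05, and 0 in either direction in the authors' deposited table. Of 10 transcriptional regulators of muscle genes, 9 were tested, 1 rose and 0 fell. It was Mef2c, a MEF2 factor gene, with 3.93 ± 0.821 FPKM in Med23KO cells and 1.12 ± 0.227 FPKM in Ctrl cells (SD, n = 3 each; log2 fold change 1.21, limma adjusted p = 0.0197). The call was lost without Med23KO replicate 2 or Ctrl replicate 2 or 3, with a limma adjusted p of up to 0.127. Of 10 muscle stem cell markers, all 10 were tested and 0 passed in limma, with 1 higher and 1 lower at an unadjusted p under 0.05 and 2 higher and 1 lower in the authors' deposited table. Summed endothelial markers were 9.51 to 13.1 FPKM in Med23KO libraries and 8.19 to 17.4 FPKM in Ctrl libraries, and summed immune markers 11.9 to 39.8 FPKM in Med23KO libraries and 12.9 to 27.6 FPKM in Ctrl libraries, so both overlapped.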
